A study of Mus musculus with 8 samples.

Results

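All 4 oocyte libraries were set against all 4 libraries of cultured pluripotent cells, which are all 8 libraries of the series, and the genes that separate the classes whatever the stage were described. The oocytes were mouse oocytes at the germinal vesicle stage (GV, 2 libraries), arrested before the meiotic divisions, and at metaphase of the second meiotic division (MII, 2 libraries). The pluripotent cells were embryonic stem cells (ESC, 2 libraries) and in vitro epiblast cells (EpiC, 2 libraries). Donor mice had 5 units of PMSG, and 48 h later an injection whose agent the labels leave out. GV oocytes were taken into MEM with 2 µM milrinone, which holds them in arrest. The MII label repeats the GV protocol and gives no maturation step. ESC grew in Knockout DMEM with LIF, 15% serum and 2 inhibitors, PD0325901 and CHIR99021. For EpiC, ESC were plated, went without LIF and inhibitors from 24 h on and were collected about 56 h after that. RNA was extracted with TRIzol and sequenced as stranded paired-end libraries. The sources used here do not give strain, transgenes, the number of oocytes pooled or any poly(A) selection. Nothing in the labels says that the 2 replicates of a group came from different animals or dishes. A p-value here therefore measures the spread between libraries, which may be technical.

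A full-grown oocyte is nearly silent in transcription and lives on mRNAs that were made during growth, stored with shortened tails and translated on cue in meiosis and after fertilization. Pluripotent cells divide rapidly with short gap phases, and a network around Pou5f1, Sox2 and Nanog with FGF and Nodal signals keeps them able to form all tissues of the embryo. Some genes, such as Pou5f1, are known in both states.

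Total estimated counts ran from 75157505 to 196788239 in oocytes and from 47463546 to 166400271 in pluripotent cells. In each group replicate 2 was deeper than replicate 1, and it held more of the model Gm42418, which collects ribosomal RNA (1.66% to 22.7% of counts, against 0.022% to 0.151%). Gene levels are in TPM, the share of a library's transcripts after division by length and scaling to a fixed total, and libraries are given in the order GV 1, GV 2, MII 1, MII 2 and ESC 1, ESC 2, EpiC 1, EpiC 2. TPM are shares, so amounts per cell are not known. In RNA from many cells, fewer cells of a type and less RNA per cell cannot be told apart.

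Marker genes of oocytes went with the labels, and those of pluripotent cells did so in part. Zp3, which encodes a protein of the egg coat, stood at 3001.4, 3770.1, 54.6 and 172.7 TPM in oocytes and at 9.73, 6.35, 1.29 and 0.795 TPM in pluripotent cells. Of the transcription factors that mark pluripotent cells, Sox2 stood at 0.434 to 2.82 TPM in oocytes and 42.7 to 207.7 TPM in pluripotent cells. Nanog, Utf1 and Tdgf1 were lower in oocytes as well, but Sall4 (log2 fold change 1.71) and Lin28a (1.31) were called higher there. Pou5f1 stood at 336.4 to 536.9 TPM in oocytes and 690.4 to 1420.8 TPM in pluripotent cells. Markers of cumulus and granulosa cells, which surround the oocyte, summed to 72.8 to 294.2 TPM in oocytes and 75.1 to 225.6 TPM in pluripotent cells. Of these sums Gja1 alone gave 26.5, 29.2, 191.3 and 114.2 TPM in pluripotent cells and 0.32 to 50.5 TPM in oocytes. The alike sums therefore do not show alike levels of the markers. Gja1, Tnfaip6 and Slc38a3 were among those called lower in oocytes. Of 21 such markers, 10 were higher and 4 lower in oocytes (median log2 fold change 2.1, and −0.26 to 2.5 under the other settings). Among all genes tested 31.9% were higher and 44.1% lower. Several were highest in GV replicate 2: Inha, an inhibin subunit, stood at 104.5 TPM there and at 0.215 to 4.66 TPM in the other oocyte libraries. Among those called higher, Hsd3b1 stood at 0.417, 22.9, 1.76 and 9.53 TPM in oocytes and had no count in pluripotent cells. Cyp19a1 stood at 18.3 to 47.4 TPM against at most 0.147 TPM, and Fshr at up to 4.18 TPM with no count in pluripotent cells. The defining marker Foxl2 stood at 0.0 to 0.244 TPM in oocytes and Amh at 0.0 to 3.19 TPM. Fibroblast markers summed to 4.51 to 7.94 TPM in oocytes and 6.52 to 156.3 TPM in pluripotent cells, of which Tagln gave 134.4 and 60.0 TPM in EpiC. Blood markers summed to at most 5.24 TPM in oocytes and 36.5 TPM in pluripotent cells, and 5 of 9 were below the filter on low counts. The part of such cells in the results was not tested, and the counts without GV replicate 2 were 7618 genes higher and 9860 lower.

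Oocytes and pluripotent cells differed in most of their mRNA. Of 25045 genes tested, 7993 were higher in oocytes (31.9%) and 11046 were lower (44.1%) at an adjusted p under 0.05, which makes 19039 in either direction (76.0%). All adjusted p-values are from edgeR's quasi-likelihood test with Benjamini-Hochberg adjustment over all genes tested, with GV, MII, ESC and EpiC weighted equally. The genes called higher held 68.5% to 88.5% of all TPM in oocytes and 11.8% to 15.4% in pluripotent cells. The genes called lower held 2.9% to 15.9% in oocytes and 55.9% to 68.0% in pluripotent cells. Differences past 2-fold, tested with glmTreat, were found for 6636 genes higher (26.5%) and 9530 lower (38.1%). The TPM of the 4 and 4 libraries did not overlap for 4544 genes higher in oocytes (18.1%) and 9703 lower (38.7%). Fewer genes were detected in oocytes: 13936, 13941, 10272 and 10908 genes reached 1 TPM there, against 14234, 16190, 14664 and 16195 in pluripotent cells. The class ranges did not overlap (two-sided exact permutation test, p = 0.0286, the smallest that 4 against 4 libraries can give). The test takes the 8 libraries as independent, but each class is 2 stages with 2 libraries each. The p-value thus counts replicates of a stage as replicates of the class. The split between classes took 72.1% of the sum of squares of the expression values, the split between stages of a class 23.7% and replicates 4.25%. Log2 fold changes are oocytes minus pluripotent cells, and their median over all genes tested was −0.84, or −0.39 over genes with a protein-coding transcript.

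**Figure D1:**
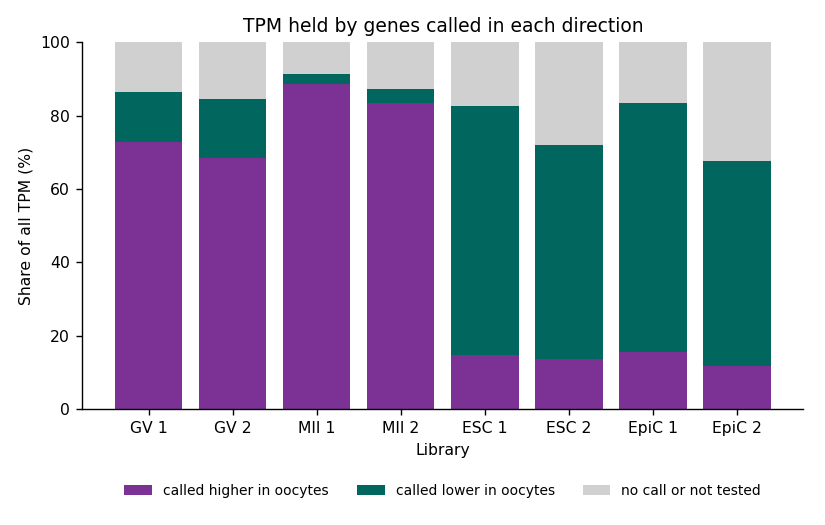
Each bar is 1 library, and its height is the share of all TPM in percent held by genes called higher in oocytes, called lower, and neither. Genes called higher make up 68.5% to 88.5% of the oocyte bars and at most 15.4% of the pluripotent bars.

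Pooling stages can hide a gene that separates only some of them, so 3 stricter rules were applied. The first asked for the same call in all 4 pairs of stages, GV and MII each against ESC and EpiC. It left 4481 genes higher in oocytes (17.9% of genes tested, 56.1% of those called higher) and 5271 lower (21.0% and 47.7%), and the latter count was 3333 without GV replicate 1. Of the calls in the pooled comparison, 155 higher and 102 lower genes were called in the opposite direction in at least 1 stage pair. The second rule asked, beside those 4 calls, for at least 1 TPM in every library of one class and at most 0.1 TPM in every library of the other. It found 459 genes on in oocytes and off in pluripotent cells (1.83%) and 517 genes on in pluripotent cells and off in oocytes (2.06%), of which 230 and 331 had a protein-coding transcript. The third rule asked, beside the 4 calls, for less than a 2-fold difference between GV and MII and between ESC and EpiC. That limit was on counts scaled between libraries, and TPM could differ by more. Mtmr14, which met it, stood at 1706.3 and 1479.4 TPM in GV and 448.8 and 457.8 TPM in MII. The third rule found 903 stage-independent genes higher in oocytes (3.61%) and 1450 lower (5.79%), and the latter count was 720 without MII replicate 2. Which genes met the third rule changed with the setting. Under the 6 other scalings and tests that were run the counts were 856 to 1424 higher and 1482 to 3712 lower, and 112 of 903 and 514 of 1450 genes met the rule under all 6. Under those settings the median over all genes tested, −0.84 on the log2 scale, became −0.97 to −0.32. The second rule was chosen after values were seen.

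**Figure D2:**
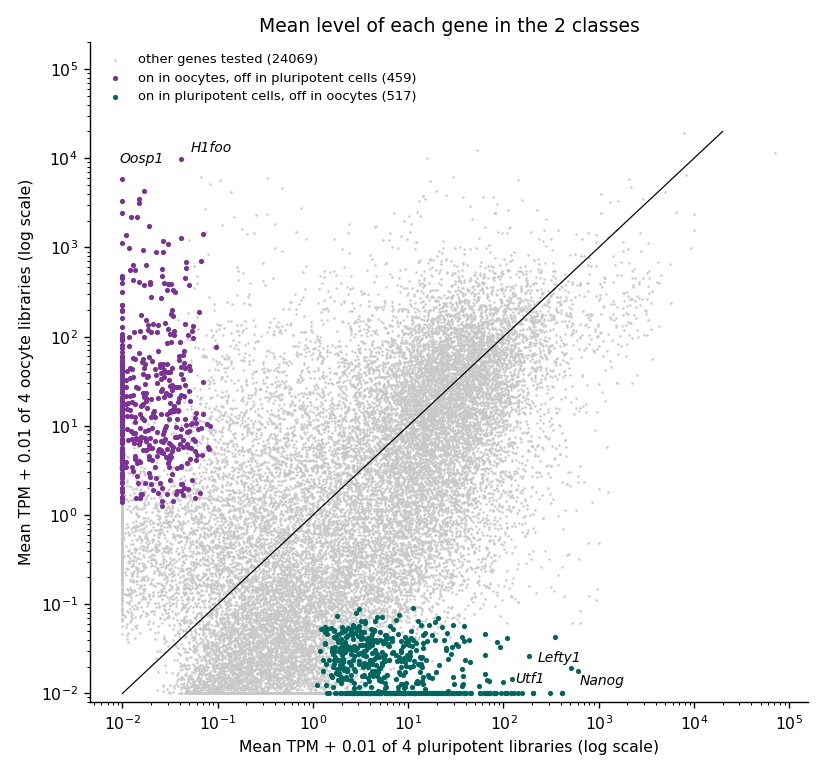
Each point is 1 of 25045 genes tested, with its mean TPM + 0.01 over 4 pluripotent libraries on the x axis and over 4 oocyte libraries on the y axis, both on log scales, and the line marks equal means. The 459 purple genes lie along the left edge and the 517 green genes along the bottom edge.

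The most abundant protein-coding genes that were on in oocytes and off in pluripotent cells encode a linker histone, secreted proteins, a deadenylase adaptor and members of F-box, KH-domain and leucine-rich repeat families. H1foo, the linker histone of oocytes, stood at 4175.1, 7095.4, 10478.3 and 17228.6 TPM in oocytes. It was listed at 0.0, 0.0648, 0.0 and 0.0579 TPM in pluripotent cells, so that the log2 fold change was 19.2 with a standard error of 0.74 (adjusted p = 2.74e-07). Log2 fold changes are given below with ± 1 standard error. Every oocyte library was thus above every pluripotent library, as the rule demands. Oosp1, named for a protein that oocytes secrete, stood at 3750.2, 2947.3, 8863.4 and 7820.8 TPM in oocytes. It had no count in pluripotent cells, which makes it at least 113712.1-fold higher in oocytes against a floor of 3 counts per library. Btg4, which brings the CCR4-NOT deadenylase to maternal mRNAs, stood at 676.0, 793.5, 6766.3 and 5095.2 TPM and had no count in pluripotent cells, at least 80738.6-fold higher. Rfpl4 (1116.1 to 7965.1 TPM), Omt2b (1355.6 to 7864.7 TPM) and Khdc1b (1350.0 to 5047.5 TPM) were at or under 0.0274 TPM in every pluripotent library. Each of these 6 genes had higher TPM in both MII libraries than in both GV libraries, and none was stage-independent by the third rule. Fbxw24, a protein with an F-box and WD40 repeats, stood at 2799.8, 1944.4, 1271.8 and 947.4 TPM. It was stage-independent on scaled counts, where the log2 difference of MII against GV was 0.06, although its TPM were lower in MII. Bcl2l10, a relative of Bcl2 that is abundant in oocytes, narrowly missed the rule: it stood at 2139.3, 2633.5, 9324.8 and 10606.0 TPM, and at 0.132 TPM in EpiC 2.

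In pluripotent cells, the genes that were on while oocytes were off held transcription factors, ligands of the Nodal and FGF pathways and membrane proteins. Nanog, a transcription factor of the pluripotency network, stood at 953.6, 814.4, 208.9 and 91.1 TPM in pluripotent cells and at no more than 0.0161 TPM in an oocyte library (log2 fold change −14.45 ± 0.68, adjusted p = 2.77e-07). Utf1, a chromatin protein of undifferentiated cells, stood at 83.7, 43.4, 298.9 and 197.5 TPM and had no count in oocytes, where it was at least 1660.2-fold lower. Fgf4, the FGF ligand that ESC make themselves, stood at 168.0, 124.7, 80.5 and 40.0 TPM and had no count in oocytes, at least 3275.9-fold lower. These 3 genes moved between ESC and EpiC, Nanog and Fgf4 downward and Utf1 upward, and stayed above all oocyte values. Nodal, a TGF-beta family ligand, was even across the cultures at 82.0, 84.9, 101.2 and 109.7 TPM, had no count in oocytes and was at least 2287.9-fold lower there. Gdf3, a related ligand, stood at 168.1, 128.4, 131.7 and 58.4 TPM and at most at 0.01 TPM in oocytes. Lefty1, an inhibitor of Nodal, stood at 22.2, 38.6, 259.0 and 415.7 TPM, with at most 0.0178 TPM in oocytes. Others were Apela, a peptide hormone (30.6 to 200.7 TPM), and Calcoco2, an autophagy receptor (12.6 to 427.6 TPM). Eno1b, Gm10184 and Rps27rt were among the most abundant as well, but they are near-identical copies of other genes, and the split of reads between such copies is uncertain.

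**Figure D3:**
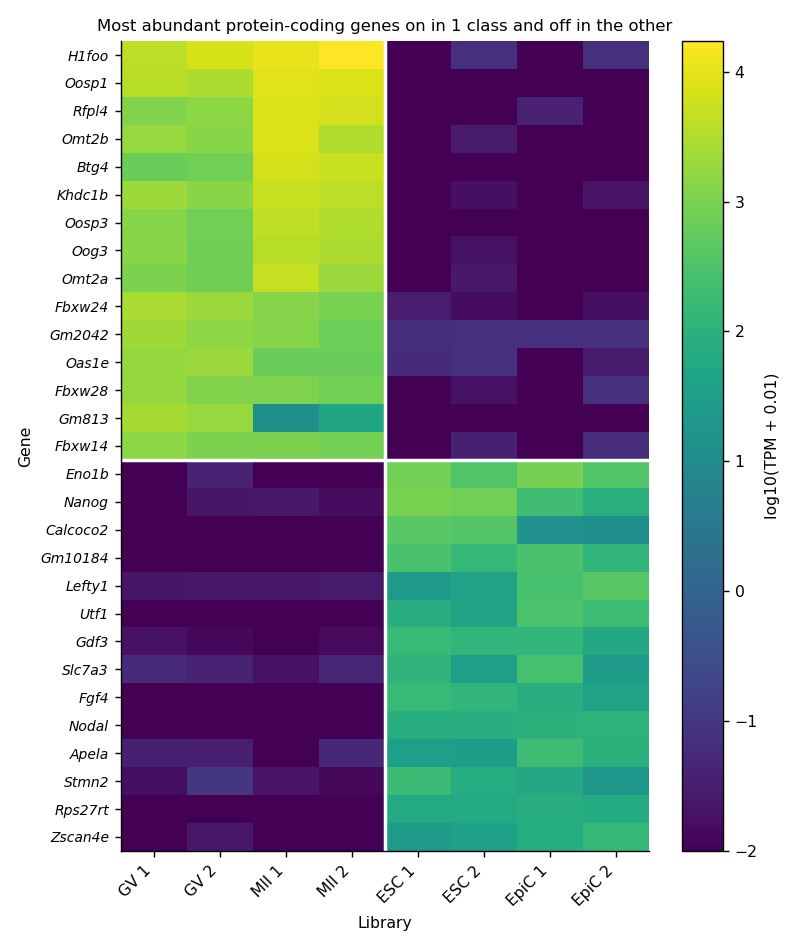
Rows are the 15 most abundant protein-coding genes on in oocytes and off in pluripotent cells and 14 of the 15 of the reverse kind, columns are the 8 libraries, and colour is log10(TPM + 0.01). The upper left and lower right blocks are bright and the other blocks are at or near the lowest value; Gm813 drops in MII and Calcoco2 in EpiC.

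The bases before the start of some of these genes show how unlike in composition the promoters of both sets can be. The sequences are from RefSeq on GRCm38.p6, 200 bases before the annotated start, on the strand of the gene, 5′ to 3′. Capitals mark matches, on either strand, to any of 5 motifs. The core of a TATA box, TATAAA, was found in this window of 9.96% of all promoters in the table. The E-box core CAGGTG was found in 13.9%. The homeobox cores TAATTA and TAATTG were found in 3.73% and 5.63%. The octamer ATGCAAAT was found in 1.38%. The oocyte genes shown are 2 of the most abundant on genes, the deadenylase adaptor, the largest stage-independent rise and a gene of the Oog run on chromosome 4; the pluripotent genes are Nodal, Utf1 and Fgf4.
Oosp1, chr19:11691052-11691251 (minus strand): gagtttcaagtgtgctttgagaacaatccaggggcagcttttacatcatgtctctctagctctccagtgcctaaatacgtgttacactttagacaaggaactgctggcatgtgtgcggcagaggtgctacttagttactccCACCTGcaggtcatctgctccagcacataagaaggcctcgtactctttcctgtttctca
H1foo, chr6:115944731-115944930 (plus strand): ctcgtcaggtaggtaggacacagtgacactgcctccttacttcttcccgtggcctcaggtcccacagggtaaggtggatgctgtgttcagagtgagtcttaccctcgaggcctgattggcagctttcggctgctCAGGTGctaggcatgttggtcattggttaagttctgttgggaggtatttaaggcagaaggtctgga
Btg4, chr9:51115801-51116000 (plus strand): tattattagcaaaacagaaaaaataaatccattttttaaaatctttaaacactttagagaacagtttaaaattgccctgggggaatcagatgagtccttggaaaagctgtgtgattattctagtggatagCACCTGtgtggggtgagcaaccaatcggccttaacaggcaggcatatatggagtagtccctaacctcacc
Nlrp9a, chr7:26534823-26535022 (plus strand): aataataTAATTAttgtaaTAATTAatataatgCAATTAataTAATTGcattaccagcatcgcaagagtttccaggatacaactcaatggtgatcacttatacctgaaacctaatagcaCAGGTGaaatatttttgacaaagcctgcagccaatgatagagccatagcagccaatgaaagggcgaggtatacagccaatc
Oog3, chr4:144162652-144162851 (minus strand): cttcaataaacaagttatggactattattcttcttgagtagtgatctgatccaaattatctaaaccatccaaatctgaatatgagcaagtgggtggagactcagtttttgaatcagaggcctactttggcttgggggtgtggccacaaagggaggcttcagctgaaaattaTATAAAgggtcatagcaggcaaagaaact
Nodal, chr10:61417772-61417971 (plus strand): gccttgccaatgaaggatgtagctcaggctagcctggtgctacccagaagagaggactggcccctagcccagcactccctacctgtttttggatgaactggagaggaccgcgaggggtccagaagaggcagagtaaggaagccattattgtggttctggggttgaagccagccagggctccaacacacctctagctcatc
Utf1, chr7:139943656-139943855 (plus strand): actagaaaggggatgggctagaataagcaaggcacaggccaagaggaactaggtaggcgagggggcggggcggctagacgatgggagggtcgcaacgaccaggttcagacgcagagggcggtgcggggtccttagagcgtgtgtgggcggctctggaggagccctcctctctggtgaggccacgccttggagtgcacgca
Fgf4, chr7:144861186-144861385 (plus strand): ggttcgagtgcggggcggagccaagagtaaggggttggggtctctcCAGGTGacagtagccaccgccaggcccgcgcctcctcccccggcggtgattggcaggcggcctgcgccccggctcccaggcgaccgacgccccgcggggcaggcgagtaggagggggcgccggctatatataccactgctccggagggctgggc
The 5 oocyte windows had 35.0% to 53.5% G and C and 0 to 4 CpG, and the windows of Utf1 and Fgf4 had 64.0% and 73.0% with 13 and 20 CpG. Nodal lay between in its share of G and C, at 56.5%, but its 2 CpG were within the range of the oocyte windows. CAGGTG stood 59, 66, 70 and 81 bases before the start in Oosp1, H1foo, Btg4 and Nlrp9a, and 154 bases before it in Fgf4. These windows were picked by hand and are not typical: CAGGTG was held by 23.0% of the promoters in the table for the oocyte set and by 17.8% for the pluripotent set. TATAAA stood 29 bases before the start of Oog3, and Nlrp9a held 2 matches to TAATTA and 2 to TAATTG. A match is only a run of letters, and its absence says nothing on a factor. A promoter was in the table for 179 of 230 protein-coding genes on in oocytes (77.8%) and 224 of 331 on in pluripotent cells (67.7%), against 77.5% of all tested protein-coding genes. Over windows of 300 bases, the median share of G and C was 47.0% for the oocyte set and 58.7% for the pluripotent set. Over all tested protein-coding genes it was 59.3%. The sets were not tested against each other, and genes without a promoter in the table are left out of these shares.

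Genes that were on in only one class lay partly in runs along the chromosomes. A run was taken as 4 or more such protein-coding genes with gaps under 500 kb, on the GRCm38 coordinates of GENCODE M21. In oocytes 3 runs held 23 of 230 genes (10%), and in pluripotent cells 10 runs held 52 of 328 with a position (15.9%). The share that other coding genes would give under this rule was not computed, so these shares do not show that such genes cluster. The densest oocyte run lay on chromosome 9 at chr9:109139447-109746089 and held 11 Fbxw genes, whose products carry an F-box and WD40 repeats. All 13 protein-coding genes tested there were called higher, and the 11 genes summed to 11822.7, 7933.0, 4698.8 and 3658.4 TPM in oocytes, against 0.0705 to 0.286 TPM in pluripotent cells. On chromosome 4, chr4:143437164-144377933 held 7 genes of the Oog family and its relatives, among them Oog2, Oog3 and Oog4, with 7751.9, 4766.0, 5524.8 and 4206.7 TPM in oocytes and at most 0.115 TPM in pluripotent cells. Of the 25 coding genes tested in that interval 12 were higher and 9 lower in oocytes, so neighbours within it went both ways. The oocyte run on chromosome 5 held 5 genes, among them Gm3259.

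The pluripotent runs held fewer TPM. On chromosome 7, chr7:10900740-11614112 held Zscan4b and Zscan4e, which mark a rare state of ESC that resembles the 2-cell embryo. Its 4 on genes summed to 60.9, 89.1, 175.6 and 333.9 TPM in pluripotent cells and to at most 0.114 TPM in oocytes, and all 8 coding genes tested there were called lower in oocytes. On chromosome 14, chr14:5015891-7315049 held 10 predicted genes with 25 of 28 tested genes lower in oocytes and none higher. A run on chromosome 13 held 6 replication histone genes, with 19 of 22 tested genes lower. Many of these families are near-identical copies, so the level of each copy is less certain than the sum of its run. Not every run was a family: that on chromosome 11 held 5 on genes among 51 coding genes tested, Arhgef15, Tmem88, Efnb3, Tnk1 and Kctd11.

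Stage-independent genes held a small share of the mRNA of each class. In oocytes the 903 genes held 8.17%, 7.28%, 3.79% and 3.65% of TPM, and in pluripotent cells 1.1% to 1.45%. The larger share in GV than in MII follows largely from the rule and is no separate result. The rule asks for like levels on scaled counts, and the scaling factors (TMM) were 1.075 and 1.15 in GV and 0.4217 and 0.4048 in MII. Genes at like levels on that scale hold a smaller share of a library in MII. The 1450 genes of pluripotent cells held 8.61%, 7.48%, 8.67% and 6.47% of TPM there and 0.338% to 0.868% in oocytes. The largest rise was Nlrp9a, an NLR family gene, with 432.3, 137.2, 215.3 and 116.4 TPM in oocytes, no count in pluripotent cells and a level at least 20544.5-fold higher. The next were Gm6205 (121.4 to 305.0 TPM, at least 14622.2-fold higher), Fbxw24, Gm2042, Fbxw18, Khdc1c, Agr3, Khdc1a, Fbxw20, Gm3259, Olah and Gm815. Khdc1a and Khdc1c are KH-domain proteins, Agr3 belongs to the protein disulfide isomerases and Olah is a thioesterase of fatty acid synthesis. Khdc1a stood at 434.7, 286.1, 359.1 and 250.9 TPM in oocytes and 0.0161 to 0.0375 TPM in pluripotent cells (log2 fold change 14.7 ± 0.42, adjusted p = 1.87e-07).

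Of the 10 most abundant stage-independent oocyte genes, Fbxw24, Gm2042, Fbxw18 and Fbxw19 were at or under 0.493 TPM in every pluripotent library. Fbxw24 stood at 947.4 to 2799.8 TPM and Gm2042 at 718.5 to 2169.7 TPM in oocytes. The others were not oocyte-only. Ube2s, the ubiquitin-conjugating enzyme that extends chains for the anaphase-promoting complex, stood at 1267.7, 1800.2, 879.1 and 1036.0 TPM in oocytes and 741.8, 650.4, 752.5 and 544.6 TPM in pluripotent cells (log2 fold change 1.56 ± 0.25, adjusted p = 0.000449). Mtmr14, a phosphoinositide phosphatase, stood at 448.8 to 1706.3 TPM in oocytes and 30.8 to 41.8 TPM in pluripotent cells (5.45 ± 0.24). Pcgf1, a Polycomb group subunit, stood at 651.4 to 1031.2 TPM against 16.6 to 23.2 TPM (6.34 ± 0.23). Tbc1d14, Tsc22d1 and the peroxiredoxin Prdx2 were also in this group, and both MII values of Prdx2, 339.3 and 313.8 TPM, lay within its pluripotent range of 224.2 to 406.6 TPM.

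The largest stage-independent falls were Gm10184, Nodal, Gm10093, Eif2s3y, Gdf3, Rps27rt, Sigirr, Gna15, L1td1, Gm6594, Ak1 and Jade1. L1td1, an RNA-binding protein derived from a LINE-1 element, stood at 471.6, 237.5, 510.4 and 146.7 TPM in pluripotent cells and 0.0339 to 0.27 TPM in oocytes (log2 fold change −11.42 ± 0.42, adjusted p = 5.12e-07). Jade1, a scaffold of a histone acetyltransferase complex, stood at 81.2 to 127.2 TPM against 0.0851 to 0.378 TPM (−8.78 ± 0.33). Ak1, adenylate kinase, stood at 30.6 to 167.5 TPM against 0.0 to 0.376 TPM (−9.27 ± 0.7). The most abundant falls were housekeeping genes: Gapdh, a glycolytic enzyme, stood at 5576.3, 3400.7, 5346.6 and 2735.7 TPM in pluripotent cells and 138.0, 227.5, 89.0 and 72.9 TPM in oocytes (−4.32 ± 0.31, adjusted p = 6.61e-06). With it were the ribosomal proteins Rpl13a, Rps2, Rplp2, Rpl37a and Rpl15, the elongation factor Eef1b2, the histone variant H2afz, the RNA-binding protein Ybx1 and the histone chaperone Set.

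Only 350 genes (1.4%) met the rule for like levels on scaled counts, with a 95% interval of the log2 fold change within 1 of 0 and all 4 stage pairs under 2-fold. The 10 most abundant were Ywhae, Ndufa4, Cct8, Myl12a, Cox5b, Banf1, U2af1, Lamp1, Erh and Psmb3, which serve in signalling, respiration, folding, contraction, nuclear assembly, splicing, lysosomes and the proteasome. Ywhae, an adaptor that binds phosphorylated proteins, stood at 402.7, 440.3, 352.1 and 346.4 TPM in oocytes and 834.5, 509.5, 807.8 and 412.3 TPM in pluripotent cells, with a log2 fold change of 0.15 ± 0.3 on scaled counts. Its TPM were mostly lower in oocytes, so that its like level holds on scaled counts and not on TPM. The same limit holds for Cct8, U2af1 and Psmb3, whose TPM were lower in every oocyte library than in every pluripotent library. Cct8 stood at 147.2 to 224.6 TPM in oocytes and 257.0 to 677.7 TPM in pluripotent cells. Of the 10 genes, all but Ywhae and Myl12a gained a call in 2 or 3 of 20 other settings.

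Several functions were carried by different members of a gene family in each class. The share of a gene in the summed TPM of a pair does not depend on how libraries are scaled, and the pairs were chosen after values were seen. Ldhb, the lactate dehydrogenase subunit of heart, stood at 6017.1, 6745.1, 977.4 and 1130.1 TPM in oocytes and 68.9 to 87.7 TPM in pluripotent cells (log2 fold change 6.05 ± 0.24, adjusted p = 5.18e-07). Ldha, the subunit of muscle and of glycolytic cells, went the other way with 2.2, 50.2, 0.596 and 3.78 TPM against 312.3 to 1683.4 TPM (−6.0 ± 0.93, adjusted p = 0.00114). Ldhb thus made up 99.3% to 100% of the pair in oocytes and 3.93% to 18.3% in pluripotent cells. Tet3, which oxidizes 5-methylcytosine, stood at 43.6, 31.6, 822.6 and 761.3 TPM in oocytes and 2.71 to 5.5 TPM in pluripotent cells (5.96 ± 0.26), and its relative Tet1 at 0.158 to 4.43 TPM against 28.2 to 67.8 TPM (−6.3 ± 0.25). Tet3 held 87.7% to 100% of the pair in oocytes and 4.07% to 16.3% in pluripotent cells.

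The poly(A) binding protein Pabpc1 showed the same exchange. It stood at 29.6, 41.4, 1.81 and 4.08 TPM in oocytes and 877.1 to 1384.4 TPM in pluripotent cells (−6.35 ± 0.37, adjusted p = 3.39e-06), and its relative Pabpc1l at 329.1, 409.1, 4.47 and 14.1 TPM against 0.131 to 2.24 TPM (8.07 ± 0.52). Pabpc1l held 71.2% to 91.8% of the pair in oocytes and at most 0.255% in pluripotent cells. Among the kinases, Wee2, which holds the meiotic arrest, made up 97.2% or more of its pair with Wee1 in oocytes and at most 0.0556% in pluripotent cells. Aurkc made up 96.0% to 99.6% of its pair with Aurkb in oocytes and 2.03% to 12.8% in pluripotent cells. Both are Aurora kinases, and Aurkc is known from germ cells. The genes of Argonaute proteins, which bind small RNAs, differed as well: Ago3 held 92.4% to 99.3% of its pair with Ago2 in oocytes and 6.42% to 19.2% in pluripotent cells. Ago3 was not called in all 4 stage pairs. In GV it stood at 67.9 and 53.5 TPM, against 3.68 to 6.2 TPM in pluripotent cells. On scaled counts, however, its log2 fold change in GV was only 1.06 against ESC and 1.12 against EpiC. The reason for this gap between TPM and counts was not tested. Cnot6l, a catalytic subunit of the CCR4-NOT deadenylase, held 92.4% to 95.8% of its pair with Cnot6 in oocytes and 15.9% to 19.3% in pluripotent cells. In the reverse direction, the transcription factor E2f3 held 0.528% to 1.16% of its pair with E2f2 in oocytes and 78.1% to 95.3% in pluripotent cells. The glucose transporter Slc2a3 held 0.793% to 2.7% of its pair with Slc2a1 in oocytes and 68.3% to 84.8% in pluripotent cells. The cohesin subunit Rec8 held at most 0.0665% of its pair with Rad21 in oocytes and 3.76% to 28.2% in pluripotent cells, although it is known for meiosis.

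In other pairs the oocyte member took a share in oocytes beside the common member. Eif4e1b, an oocyte cap-binding protein, made up 59.2% to 87.1% of its pair with Eif4e in oocytes, while Eif4e itself was higher there by the test (1.57 ± 0.34, adjusted p = 0.00263). The class ranges of Eif4e overlapped, at 216.5 to 505.0 TPM against 147.0 to 326.3 TPM, and its call was lost with limma on log2(TPM + 1) and log2(TPM + 0.1), at 0.55 in both. Tbpl2, the TATA-binding protein of oocytes, made up 14.6% to 35.9% of its pair with Tbp, which was also higher in oocytes by the test (1.13 ± 0.21), a call that limma on both TPM scales did not make (0.35). Npm2, a nucleoplasmin, made up 70.9% and 80.8% of its pair with Npm1 in GV and 3.16% and 7.93% in MII, and Npm1 did not pass the test (−0.7 ± 0.39, adjusted p = 0.126). The TPM of Npm1 were nonetheless all lower in oocytes, at 744.8 to 1486.2 TPM against 1611.7 to 5241.2 TPM, and it was called lower with the strict filter (−1.08), without EpiC replicate 2 (−0.99) and with limma on both TPM scales (−1.41). The class ranges of the pairs Cpeb1 with Cpeb4 and Hk1 with Hk2 overlapped.

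**Figure D4:**
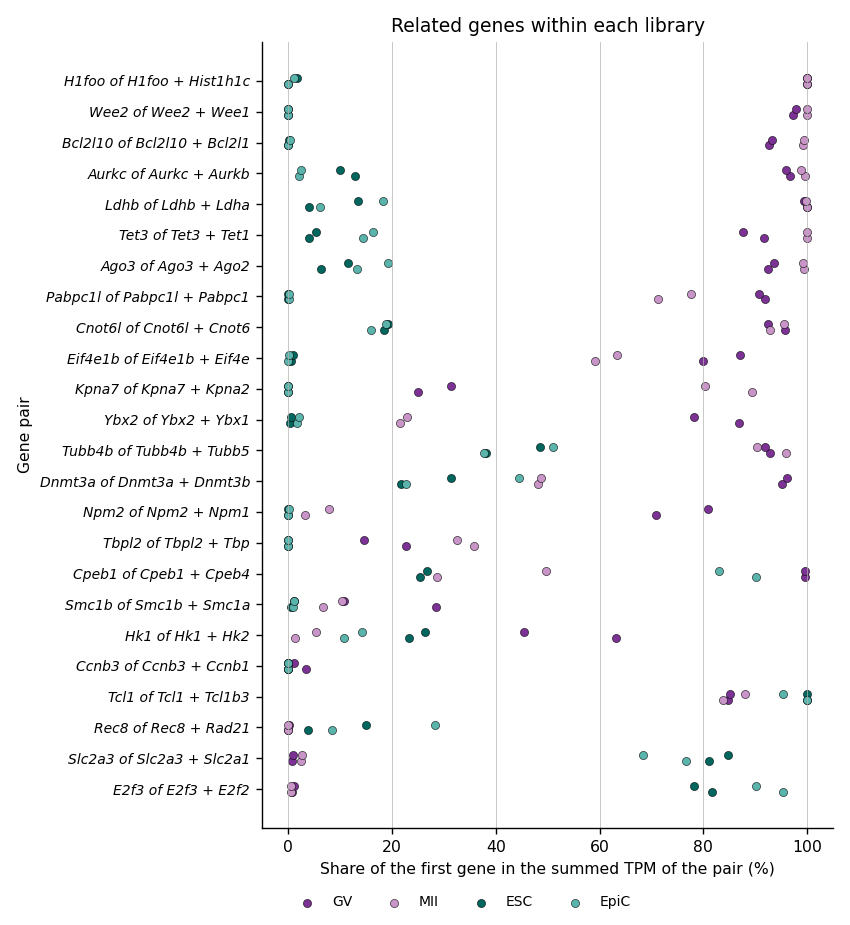
Each row is a pair of related genes, and each point is the share in percent of the first gene in the summed TPM of the pair in 1 library, coloured by group. In the upper rows all oocyte points lie to the right of all pluripotent points, in the lowest rows to the left.

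Genes of oocyte functions were read from 9 lists, and the counts of these and of all later lists are set against 31.9% higher and 44.1% lower among all genes tested. The lists were chosen with earlier results of these data known. All 8 genes of the subcortical maternal complex, which oocytes build under their cortex for the embryo, were higher in oocytes (median log2 fold change 8.92). Zbed3 of that list stood at 3833.9, 4099.6, 16544.6 and 15937.7 TPM against 9.91 to 25.1 TPM, and Padi6 at 4057.3, 4518.4, 90.9 and 200.2 TPM against 0.0136 to 0.319 TPM. Both were far above pluripotent cells at each stage, but Zbed3 was higher in MII than in GV and Padi6 lower. All 19 tested genes of the oocyte NLR, Oog, Oosp and Oas1 families were higher (median 15.42, or 14.33 with genes without counts set to their bounds), and Nlrp4d was below the filter. Of 9 egg coat and sperm-egg surface genes 6 were higher and 1 lower (median 11.7). Zp2 stood at 3464.2, 2262.2, 56.8 and 115.6 TPM in oocytes and at most at 0.143 TPM in pluripotent cells. Astl, the protease ovastacin that hardens the egg coat, was stage-independent at 615.7, 622.0, 143.7 and 360.6 TPM. The gene that was lower was Cd9, a surface protein needed for sperm fusion, with 176.9, 167.4, 7.25 and 11.8 TPM in oocytes and 487.0, 281.4, 63.0 and 38.9 TPM in pluripotent cells (−0.95 ± 0.28, adjusted p = 0.0114). Its class ranges overlapped, and the call was lost without GV replicate 1, MII replicate 1 or ESC replicate 1, at −0.74, −0.56 and −0.75, and with 1 mean per class, at −0.89.

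Growth factors that the oocyte sends to its follicle were high. Of 11 such ligands and receptors 7 were higher and 1 lower (median 3.52). Gdf9 stood at 5022.0, 4883.9, 5770.7 and 8516.5 TPM in oocytes and 0.102 to 0.662 TPM in pluripotent cells (15.31 ± 0.54, adjusted p = 9.34e-07), and Bmp15 at 2110.0, 1018.4, 256.6 and 555.4 TPM against 0.0 to 1.02 TPM. Among 16 oocyte transcription factors 13 were higher and none lower (median 4.95). The homeobox genes Obox1, Obox2 and Obox5 led, and Obox2 stood at 3195.6, 2273.4, 8348.0 and 9243.6 TPM against at most 0.174 TPM. The 3 that did not pass were Sohlh1, Taf4b and Obox6. Near-identical Obox copies make the level of each less certain.

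Storage and translation of maternal mRNA split by gene. Of 22 genes 16 were higher and 4 lower (median 4.14). Zar1, which binds stored mRNAs, stood at 1011.0, 1329.6, 633.2 and 655.1 TPM against 0.19 to 0.758 TPM (11.77 ± 0.34). The 4 genes that were lower were Pabpc1, the RNA helicase Ddx6, the mRNA decay factor Zfp36l2 and the RNA-binding protein Msi2. Msi2 was lower in GV (−3.85 and −3.57 against ESC and EpiC) and near level in MII (−0.39 and −0.11), and its call was lost with 1 mean per class (−1.13). Ddx6 stood at 11.6, 4.65, 0.994 and 1.69 TPM in oocytes and 63.6 to 102.2 TPM in pluripotent cells (−3.74 ± 0.33, adjusted p = 1.67e-05). Among 29 genes of meiotic arrest and the meiotic cycle 19 were higher and 8 lower (median 1.94). Mos, the kinase that holds metaphase arrest, stood at 400.3, 634.4, 283.7 and 738.2 TPM against 0.0865 to 0.292 TPM (12.24 ± 0.51). Fbxo43, the inhibitor of the anaphase-promoting complex in that arrest, stood at 30.5 to 231.5 TPM against 0.0311 to 0.167 TPM (10.6 ± 0.35). Among the genes that were lower were the meiotic cohesin subunits Rec8 and Stag3. Stag3 stood at 5.75, 4.85, 0.295 and 0.493 TPM in oocytes and at 20.2, 39.3, 24.5 and 60.7 TPM in pluripotent cells (−3.77 ± 0.31, adjusted p = 1.11e-05). Both Stag3 and Rec8 had all pluripotent values above all oocyte values.

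Chromatin genes went both ways. Of 23 maternal chromatin factors 12 were higher, 5 lower and 6 did not pass (median 1.12). Dppa3, which guards maternal methylation, stood at 2435.1, 2288.9, 3203.8 and 2165.8 TPM in oocytes and 6.42 to 18.1 TPM in pluripotent cells (8.63 ± 0.26, adjusted p = 2.82e-07). The histone methylation enzymes Kdm5b (−5.38 ± 0.29) and Ehmt2 (−4.29 ± 0.4) and the histone chaperone Hira (−2.69 ± 0.31) were lower. The call of Hira was lost with 1 mean per class (−1.94). In the piRNA pathway, which silences transposons in germ cells, 14 of 18 genes were higher and 1 lower (median 3.31). Asz1 stood at 129.9, 79.2, 41.5 and 28.1 TPM against 0.124 to 0.574 TPM and was stage-independent, and Gtsf1 at 1008.0, 832.0, 12.1 and 21.1 TPM against 0.552 to 1.95 TPM. The helicase Mov10 was the gene that was lower, but by −0.3 between GV and EpiC.

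More genes of the microRNA pathway were lower than higher in oocytes. Of 28 genes of microRNA biogenesis and the RNA-induced silencing complex, 17 were lower in oocytes and 6 higher (median −1.32). Under the other settings 12 to 21 were lower and 3 to 6 higher, with a median of −2.3 to −0.95. The median over all genes tested was −0.84, so the list as a whole lay not far below it. Ago1 stood at 0.263, 0.751, 0.0505 and 0.0749 TPM in oocytes and 39.5, 32.0, 40.6 and 35.3 TPM in pluripotent cells (−6.83 ± 0.35, adjusted p = 1.52e-06). Ago2, the Argonaute that cuts its target, stood at 5.55, 3.58, 0.674 and 0.578 TPM against 26.0 to 53.6 TPM (−3.65 ± 0.23). Ajuba, a LIM protein that binds Argonaute complexes, stood at 0.00937 to 0.287 TPM against 69.0 to 155.9 TPM (−8.83 ± 0.47). Dicer1, the nuclease that makes microRNAs and endogenous siRNAs, was higher at 105.7, 35.9, 130.0 and 90.0 TPM against 14.1 to 24.8 TPM (3.16 ± 0.33, adjusted p = 4.24e-05), and so were Ago3 and the LIM protein Limd1. Lin28a, which blocks let-7 processing, was higher by the test (1.31 ± 0.39, adjusted p = 0.0138) with overlapping ranges, 26.2, 35.6, 272.0 and 225.2 TPM against 27.7, 8.28, 372.7 and 182.8 TPM. Its call was lost with the strict filter (0.94), with 1 mean per class (1.35) and with limma on log2(TPM + 1) and log2(TPM + 0.1) (0.44 and 0.46).

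**Figure D5:**
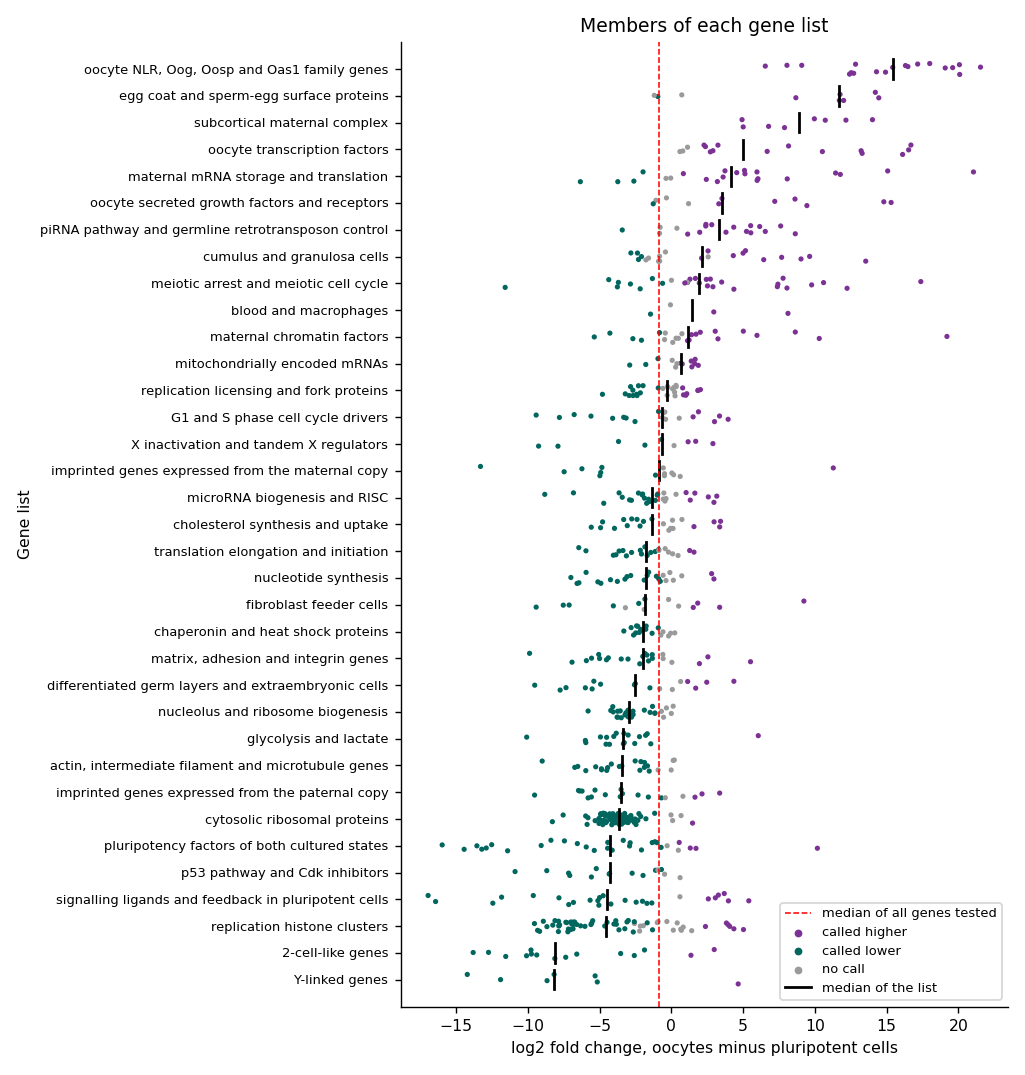
Each row is a list of genes, each point the log2 fold change (oocytes minus pluripotent cells) of 1 tested member (purple called higher, green called lower, grey no call), and the black bar the median of the list; the dashed line is the median of all genes tested, −0.84. Points of genes without a count in a group depend on the prior count of the fit and are no bound.

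Pluripotency factors were mostly lower in oocytes, with exceptions that oocytes share. Of 30 factors 24 were lower, 4 higher and 2 did not pass (median −4.28). Tdgf1, a co-receptor of Nodal, stood at 0.0 to 0.238 TPM in oocytes and 313.3 to 1080.1 TPM in pluripotent cells, and Sall1 at most at 0.00804 TPM against 22.1 to 58.4 TPM. Pou5f1, the central factor of the network, was lower by much less, with 338.4, 536.9, 336.4 and 362.1 TPM in oocytes and 1420.8, 914.1, 1116.7 and 690.4 TPM in pluripotent cells (−0.72 ± 0.28, adjusted p = 0.0429). That call was lost without either MII library or replicate 1 of GV, ESC or EpiC, at −0.6 to −0.31, and with RLE, upper-quartile or length-offset scaling, no filter, DESeq2 or 1 mean per class, at −0.67 to −0.51, although the TPM of the classes did not overlap. The oocytes thus held Pou5f1 at 336.4 TPM or more while Sox2 and Nanog were near 0. Tcl1, a cofactor of AKT, was higher in oocytes at 1106.8, 1416.0, 6405.4 and 6534.5 TPM against 78.1, 20.9, 0.836 and 0.25 TPM (10.17 ± 0.44, adjusted p = 1.48e-06), and Sall4 was higher in the pooled comparison (1.71 ± 0.31). Sall4 stood at 64.4 and 88.8 TPM in GV, within its pluripotent range of 71.3 to 89.6 TPM or just below it, and at 228.1 and 463.6 TPM in MII. Esrrb was higher by the test (0.54 ± 0.22, adjusted p = 0.0475), and its class ranges overlapped, at 145.7, 189.8, 19.4 and 20.3 TPM against 294.1, 222.1, 4.71 and 4.06 TPM. Its log2 fold change turned to −1.38 with 1 mean per class, and its call was lost without GV replicate 2 or any 1 of the pluripotent libraries, at 0.46 to 0.62, and with RLE scaling (0.62), the strict filter (0.15) and coding genes only (0.4).

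Signalling genes of pluripotent cells followed the ligands. Of 26 ligands, receptors and feedback genes 19 were lower and 6 higher (median −4.49). Lefty2 stood at most at 0.0843 TPM in oocytes and at 27.1 to 105.5 TPM in pluripotent cells. Etv5, a transcription factor downstream of FGF, stood at 2.26, 2.51, 1.11 and 1.39 TPM against 107.6 to 193.0 TPM and was stage-independent (−5.67 ± 0.24, adjusted p = 6.28e-07). The receptors and mediators that were higher in oocytes included Fgfr2 (26.6 to 107.7 TPM against 2.17 to 19.2 TPM, 3.97 ± 0.22), Stat3 (63.0 to 208.7 TPM against 6.69 to 51.2 TPM, 3.68 ± 0.24) and the FGF feedback inhibitor Spry4 (49.0 to 132.7 TPM against 0.245 to 13.2 TPM, 5.39 ± 0.51).

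Of 19 drivers of the first phases of the cell cycle 9 were lower and 5 higher (median −0.63), shares near those of all genes tested, so the list as a whole did not stand out. Mycn stood at 0.0 to 0.56 TPM in oocytes and 50.1 to 80.6 TPM in pluripotent cells (−9.43 ± 0.99, adjusted p = 2.11e-05). Ccnd1, cyclin D1, stood at 0.0197 to 0.89 TPM against 41.8 to 111.8 TPM (−7.81 ± 0.31), whereas E2f1 was higher in oocytes at 105.2, 128.1, 298.1 and 249.8 TPM against 13.7 to 30.7 TPM (3.95 ± 0.24). Of 29 replication proteins 12 were lower, 7 higher and 10 did not pass (median −0.28, and −1.21 to 0.02 under the other settings), which is also near or below the shares of all genes tested. The polymerase subunits Pold1 (−4.81 ± 0.31) and Pole (−3.22 ± 0.31) and the ligase Lig1 (−2.95 ± 0.28) were lower, and the origin proteins Orc1 (2.02 ± 0.25) and Orc6 (1.84 ± 0.22) and the helicase factor Cdc45 (1.86 ± 0.23) were higher in the pooled comparison. The difference lay mostly in MII: GV against ESC was 0.39, 0.18 and 0.27 in these 3 genes, and MII against ESC 2.68, 3.52 and 2.67. Orc6 stood at 148.6 and 143.2 TPM in GV, below all pluripotent values (152.1 to 203.4 TPM), and at 659.7 and 664.5 TPM in MII. Of 24 genes of nucleotide synthesis 17 were lower and 2 higher, Ctps and Mthfd2 (median −1.79). Ctps, which makes CTP, stood at 257.5, 218.4, 357.9 and 368.7 TPM against 65.0 to 104.8 TPM (2.8 ± 0.24). Cad, which starts pyrimidine synthesis, stood at 0.139 to 5.69 TPM against 99.5 to 134.8 TPM (−7.01 ± 0.37).

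Genes for ribosomes and translation held a far smaller share of the mRNA in oocytes. Of 84 cytosolic ribosomal protein genes 80 were lower, 1 higher and 3 did not pass (median −3.64), and together they took 4337.7 to 36145.7 TPM in oocytes and 133879.8 to 175826.5 TPM in pluripotent cells. The gene that was higher was Rpl39l, a copy known from germ cells (1.47, adjusted p = 0.00123). It stood at 244.0, 219.7, 25.3 and 14.2 TPM in oocytes and 122.1, 79.1, 27.8 and 13.9 TPM in pluripotent cells, so the ranges overlapped and MII lay below ESC (−0.88). Its call was lost with limma on both TPM scales (0.59) and with 1 mean per class (1.53). Of 29 nucleolar and ribosome biogenesis genes 24 were lower and none higher (median −2.93), and 12 to 29 were lower under the other settings. Of 22 elongation and initiation factors 15 were lower and 2 higher (median −1.77), and 8 to 19 were lower under the other settings. Eef1a1 stood at 1759.1, 2070.5, 58.1 and 105.7 TPM in oocytes and 6915.6 to 11422.2 TPM in pluripotent cells (−3.65 ± 0.3). Eif4ebp1, the repressor of cap-dependent translation, stood at 1.69 to 6.57 TPM against 313.1 to 725.0 TPM and was stage-independent (−6.46 ± 0.35, adjusted p = 2.31e-06).

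Nearly all of glycolysis was lower in oocytes. Of 19 genes of glycolysis and lactate 18 were lower and Ldhb alone was higher (median −3.35). Slc2a3 stood at 0.0395, 0.0942, 0.347 and 0.334 TPM in oocytes and at 473.0, 273.6, 466.8 and 294.2 TPM in pluripotent cells (−10.09 ± 0.43, adjusted p = 1.18e-06). Of 21 genes of cholesterol synthesis and uptake 11 were lower and 4 higher (median −1.36). Mvk, mevalonate kinase, stood at 0.0163 to 1.78 TPM against 7.49 to 20.1 TPM (−4.94 ± 0.61), and the sterol sensor partner Insig1 was higher at 111.2, 112.5, 502.7 and 495.2 TPM against 16.7 to 77.4 TPM (3.42 ± 0.4). The chaperonins and heat shock proteins had 13 of 18 lower and none higher (median −1.96), but 4 to 17 lower under the other settings. Actin, filament and tubulin genes had 19 of 23 lower and none higher (median −3.46). Krt19 and Krt18 of simple epithelia and thymosin Tmsb4x were among them, and Tmsb4x stood at 1.11 to 1.75 TPM in oocytes and 98.4 to 208.3 TPM in pluripotent cells (−5.97 ± 0.32). Matrix and adhesion genes had 17 of 23 lower and 3 higher (median −2.0), the latter led by the laminin chain Lamb1 at 335.8, 242.1, 546.0 and 951.6 TPM against 7.14 to 56.3 TPM (5.51 ± 0.29).

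The p53 pathway was low in oocytes, with 12 of 15 genes lower and none higher (median −4.31). Phlda3, a p53 target, stood at 0.0 to 0.136 TPM in oocytes and 62.0 to 170.4 TPM in pluripotent cells, and the proapoptotic Bbc3 at 0.0118 to 0.071 TPM against 13.5 to 38.1 TPM (−8.69 ± 0.49, adjusted p = 1.47e-06). Cdkn1a, the Cdk inhibitor p21, stood at 0.215 to 1.21 TPM against 66.5 to 253.7 TPM (−7.09 ± 0.51). Of 15 genes of the 2-cell-like state 13 were lower and 2 higher, Tcstv1 and Tcstv3 (median −8.13, or −6.6 with bounds). The call of Tcstv3 was lost without GV replicate 2, MII replicate 2, ESC replicate 1 or EpiC replicate 1, at 1.03 to 1.43, with coding genes only (1.19), with 1 mean per class (1.25) and with limma on log2(TPM + 1) and log2(TPM + 0.1) (0.63 and 0.68). Replication histone genes had 43 of 62 lower and 6 higher (median −4.57, or −3.75 with bounds), and 6 more were below the filter. Under the other settings, with the strict filter that tests fewer genes among them, 1 to 45 of these histone genes were lower. Their mRNAs end without a poly(A) tail, and the library kit is known only as stranded TruSeq. Hist1h2bc was higher at 143.6, 167.3, 14.8 and 21.4 TPM against 4.2 to 8.88 TPM (4.06, adjusted p = 3.71e-06).

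Genes of the Y chromosome, which oocytes lack, gave 1 exception. Eif2s3y, Ddx3y, Uty, Usp9y, Zfy1 and Uba1y were lower in oocytes, and Zfy2 and Sry were below the filter. Eif2s3y stood at 30.8, 19.5, 39.7 and 15.8 TPM in pluripotent cells with no count in oocytes, at least 494.4-fold lower, and Ddx3y at 9.03 to 27.3 TPM against at most 0.0164 TPM. Kdm5d was called higher in oocytes (4.65, adjusted p = 3.08e-05), with 38.8, 35.9, 1.5 and 1.91 TPM against 0.36 to 1.17 TPM. In oocytes 89.6% to 99.6% of its estimated count lay on 1 transcript model, against 34.5% to 41.5% in pluripotent cells, and whether those oocyte reads come from Kdm5d or from a like sequence elsewhere was not tested.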

How the data were processed

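Bulk RNA of 8 libraries was analysed, 2 each of GV and MII oocytes, ESC and EpiC. Per the submitters' processing notes, kallisto 0.43 was used with mm10. Per the file headers, the authors deposited estimated counts for each transcript in each library, and TPM for the same transcripts. Both were summed per gene here, with gene positions from GENCODE M21 on GRCm38, and the estimated counts were rounded to whole numbers. Genes were filtered with filterByExpr, scaled with TMM and tested with edgeR 4.0.16 (R 4.3.3), with 1 mean per group and 4 residual degrees of freedom. The contrast was the mean of GV and MII minus the mean of ESC and EpiC, so that each group weighed the same, with Benjamini-Hochberg adjustment at 0.05. Standard errors are from the Wald form of the fit and are left out where a group has no count. Folds against a class without counts use a floor of 3 counts per library, which covers counting error only. The TMM factors of MII were 0.4217 and 0.4048 against 1.075 to 1.576 in the other libraries.

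On simulated counts of the same design, 13 of 50 genes changed 2-fold and all 50 at each of 4-, 8- and 16-fold were called, with 8 false calls. The simulation was an easier setting than the data. Only 200 of 23657 genes were changed, none of them with low counts, and the stages of a class did not differ. Its spread between libraries was also smaller than the common spread fitted to the data. These rates therefore do not carry over to the data. Alternatives were RLE, upper-quartile and length-offset scaling, no filter or a strict one, DESeq2 1.42.0, limma 3.58.1 on log2(TPM + 1) and log2(TPM + 0.1), coding genes only, no ribosomal RNA models, a replicate block, 1 mean per class, and leaving out each library.

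Members and lists were chosen with earlier results of these data known. Genes were named by rule: the 12 largest stage-independent changes each way with a mean of at least 10 TPM, the 10 most abundant stage-independent genes of each class, up to 3 called genes per list and direction, all Y-linked genes, a few fixed markers, the 10 most abundant genes at like levels and the 10 most abundant genes of each class. On and off genes, gene pairs, runs, and list members named beyond 3 per direction (Tdgf1, Sall1, Etv5, Lefty1, Cdkn1a and Tmsb4x among them) were chosen after values were seen. Some genes that these rules name are not reported here.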

Additional observations from a re-analysis of the deposited data

Results flagged for a closer look

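In 390 sets of the 4 libraries of a class, 10 values stood apart from the other 3 libraries (Dixon's test at 95%, which by chance marks about 1 in 20 sets). Of these, 5 were in GV replicate 2. The summed cumulus and granulosa cell markers were at 294.2 TPM there and 72.8 to 90.8 TPM in the other oocyte libraries, and Inha was at 104.5 TPM against 0.215 to 4.66 TPM. In the same library Ldha stood at 50.2 TPM against 0.596 to 3.78 TPM, Eif4ebp1 at 6.57 TPM against 1.69 to 2.03 TPM and Pou5f1 at 536.9 TPM against 336.4 to 362.1 TPM. The part of other cells in these values was not tested. In EpiC replicate 1, Hira stood at 72.6 TPM against 50.1 to 53.9 TPM in the other pluripotent libraries. In EpiC replicate 2, Pold1 stood at 60.6 TPM against 66.2 to 66.9 TPM, and the summed oocyte NLR, Oog, Oosp and Oas1 family genes at 1.97 TPM against 6.24 to 6.92 TPM. Of the imprinted genes, Inpp5f stood at 20.2 TPM in GV replicate 1 against 8.31 to 10 TPM in the other oocyte libraries, and Mest at 242.1 TPM in EpiC replicate 1 against 28.8 to 48.5 TPM.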

How the results depend on the processing

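Most calls held under other settings. Of the genes called higher and lower, 6236 (78.0%) and 9386 (85.0%) kept their call and direction under all 6 other scalings and tests. Without each of the 8 libraries in turn 6932 (86.7%) and 8183 (74.1%) did so. Under all of these settings together with 1 mean per class and the replicate block, 5774 (72.2%) and 6861 (62.1%) did so. With 1 mean per class, where differences between stages add to the spread, 6796 genes were higher and 8668 lower. The strict filter, which tests only 11510 genes, gave 4279 higher and 5208 lower, 2494 and 2944 in all 4 stage pairs, and 488 and 770 stage-independent. Limma on log2(TPM + 1) gave 1424 and 3712 stage-independent genes and 6780 genes at like levels, and limma on log2(TPM + 0.1) gave 3022 stage-independent genes lower. With a limit of 1.5-fold within a class, 426 and 746 genes were stage-independent, and with 4-fold 2199 and 2944. With an interval within 1.5-fold, 13 genes were at like levels. The cause of these changes was not tested beyond the filter's own construction. Leaving out 1 library gave 3333 to 5073 genes lower in all 4 stage pairs (lowest without GV replicate 1), 720 to 1325 stage-independent genes lower (lowest without MII replicate 2) and 200 to 308 genes at like levels (lowest without ESC replicate 2, and 226 without ESC replicate 1). Among named genes, Esrrb turned to −1.38 with 1 mean per class, a setting that also ended the calls of Cd9, Cnot6, Hira, Lin28a, Msi2, Pax6, Pou5f1, Rlim, Rpl39l, Tcstv3 and Wee1.

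The labels do not say that a replicate number marks a shared source, and the numbers were not taken as pairs. The replicate differences did correlate within a class, at 0.456 between GV and MII and 0.758 between ESC and EpiC, and at 0.0334 to 0.144 between classes, and replicate 2 was deeper and richer in Gm42418 in every group. With a replicate block, 8259 genes were higher and 11348 lower. The share of calls that were higher was 42.0%, and 41.7% to 44.6% under the other count-based scalings and DESeq2, 35.3% with limma on log2(TPM + 1) and 33.5% on log2(TPM + 0.1). With 2 libraries per group, 2-fold differences were mostly missed in simulated counts, and genes with few counts in all libraries were not tested.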

Other observations

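Imprinted genes, which are known to be expressed from one parental copy, differed by list. Among all genes tested 44.1% were lower and 31.9% higher, with a median log2 fold change of −0.84. Of 14 genes expressed from the maternal copy 7 were lower, 6 did not pass and Kcnq1 alone was higher (median −0.84), close to all genes tested in the share that was lower and in the median, and of 19 tested from the paternal copy 14 were lower and 3 higher, Mest, Usp29 and Inpp5f (median −3.51). Kcnq1, a potassium channel gene, stood at 40.9, 38.0, 72.5 and 83.4 TPM in oocytes and 0.0292 to 0.229 TPM in pluripotent cells (11.28 ± 0.38, adjusted p = 2.56e-07 in edgeR). The noncoding RNA H19 stood at most at 0.0648 TPM in oocytes and at 4.75, 5.23, 514.6 and 854.2 TPM in pluripotent cells, and was thus far higher in EpiC than in ESC. Of the noncoding regulators of X inactivation, Tsix, Ftx and Jpx were lower in oocytes and Xist did not pass (0.18), whereas the coding genes Kdm6a, Ddx3x and Rlim of the X chromosome were higher in the pooled comparison (2.89, 1.69 and 1.16). The difference lay mostly in MII: against ESC and EpiC, Kdm6a was at 0.48 and 0.75 in GV and 5.02 and 5.29 in MII, Ddx3x at 0.17 and −0.11 in GV and 3.49 and 3.21 in MII, and Rlim at 0.92 and −0.58 in GV and 2.9 and 1.4 in MII. The calls of Ddx3x (0.71) and Rlim (0.25) were lost with limma on both TPM scales, and that of Rlim also with the strict filter (0.74) and with 1 mean per class (1.29). Of 17 tested genes of differentiated germ layers and extraembryonic cells, 10 were lower, led by Hand1, T and Foxa2, and 4 higher, Gata4, Gata6, Pax6 and Tfap2c (median −2.52, or −2.08 with bounds). The call of Gata6 was lost without GV replicate 2, at 1.52, and with limma on log2(TPM + 1) and log2(TPM + 0.1), at 0.33 and 1.04. Limma on both scales also made no call for Pax6 (0.16 and 0.3), Tfap2c (0.76 and 0.79) and Inpp5f (0.33 and 0.36), and Pax6 lost its call with 1 mean per class (1.31). Between GV and EpiC, Pax6 (−1.46) and Mest (−0.46) went the other way.

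Among kinds of genes, 38.4% of 1642 long intergenic noncoding RNAs were higher in oocytes and 33.7% lower. Transcript models that the annotation lists as still to be proven by experiment had 7.7% of 1363 higher and 64.0% lower, and pseudogenes 19.5% of 2276 higher and 53.9% lower. The 13 mRNAs of the mitochondrial genome had 7 higher and 3 lower (median 0.65, and −0.23 to 1.61 under the other settings), and the stages of the oocyte lay on either side of pluripotent cells. They summed to 17410.2 and 14477.9 TPM in GV, 101357.0 and 88271.1 TPM in MII and 38145.7 to 50879.7 TPM in pluripotent cells.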
